A study of Bos taurus with 6 samples.

Results

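The small leucine-rich proteoglycan genes are a family of extracellular matrix genes, and 8 of them (DCN, BGN, LUM, FMOD, OGN, PRELP, ASPN and OMD) were examined in the longissimus dorsi, the long muscle of the back, of Shandong black cattle and Luxi cattle. They were chosen by name, and all 8 were found among the 17258 genes listed in the files. RNA-Seq was performed on 3 Shandong black cattle and 3 Luxi cattle, all 18 months old, and each animal gave 1 library. The Shandong black breed was formed from Japanese black, Luxi and Bohai black cattle, and the study describes its animals as offspring of cloned cattle. Luxi cattle is a local yellow breed. The breeds came from different suppliers, so breed and farm cannot be told apart. The 8 genes were studied at the level of gene FPKM (fragments per kilobase of transcript, scaled to the depth of the library), and a difference is Luxi minus Shandong black throughout.

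The proteins of this family consist of a small core of leucine-rich repeats, to which chains of chondroitin, dermatan or keratan sulphate may be attached. They lie on the surface of collagen fibrils, where they set the width and spacing of the fibrils, and several of them hold growth factors such as TGF-beta in the matrix. In muscle they are made mainly by the fibroblasts of the connective tissue around and between the fibres, and intramuscular connective tissue is known for its part in the texture of beef. By sequence, DCN (decorin), BGN (biglycan) and ASPN (asporin) form class I, LUM (lumican), FMOD (fibromodulin), PRELP and OMD (osteomodulin) form class II, and OGN (osteoglycin) belongs to class III.

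Several features of the libraries bear on every comparison below. The libraries rested on 14.1 to 14.6 gigabases of aligned sequence in Shandong black cattle and on 17.52 to 17.99 gigabases in Luxi cattle. XIST, the RNA that coats the inactive X chromosome of females, had 10.7, 4.83 and 14.0 FPKM in Shandong black animals 1 to 3 and 0, 0 and 0.207 FPKM in Luxi animals 1 to 3. The labels give no sex, and sex and breed cannot be told apart where XIST divides the animals as the breeds do. Luxi animal 1 stood apart from the other 5 animals in some genes, with 12237 FPKM of the skeletal actin gene ACTA1 against 32188 to 54910, and with 131 FPKM of the mural cell gene RGS5 against 8.22 to 18.7. Over the 9765 genes tested, the log2 fold change had a median of 0.13, and of 0.02 after scaling by size factors, so a difference of a member is best read against that shift.

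In both breeds DCN was by far the most abundant member. It took 51.9 to 64.2% of the summed FPKM of the 8 genes in Shandong black cattle and 59.6 to 73.4% in Luxi cattle. In Shandong black cattle the mean FPKM followed the order DCN, BGN, FMOD, PRELP, LUM, OGN, ASPN and OMD, and in Luxi cattle the order DCN, PRELP, BGN, LUM, OGN, FMOD, ASPN and OMD. Between DCN at the top and OMD at the bottom, the ranges of genes next to each other in this order overlapped in both breeds, and such neighbours are not separated from the spread between animals. Genes further apart were in part separated. BGN, LUM and PRELP lay above ASPN without overlap in both breeds, and PRELP was higher than LUM and OGN in each of the 6 animals. The lowest DCN value, 56.8 FPKM, lay above the highest value of any other member, 27.0 FPKM of BGN. The summed FPKM of the 8 genes was 153, 88.6 and 132 in Shandong black animals 1 to 3 and 205, 159 and 119 in Luxi animals 1 to 3, and the breeds overlapped.

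**Figure D1:**
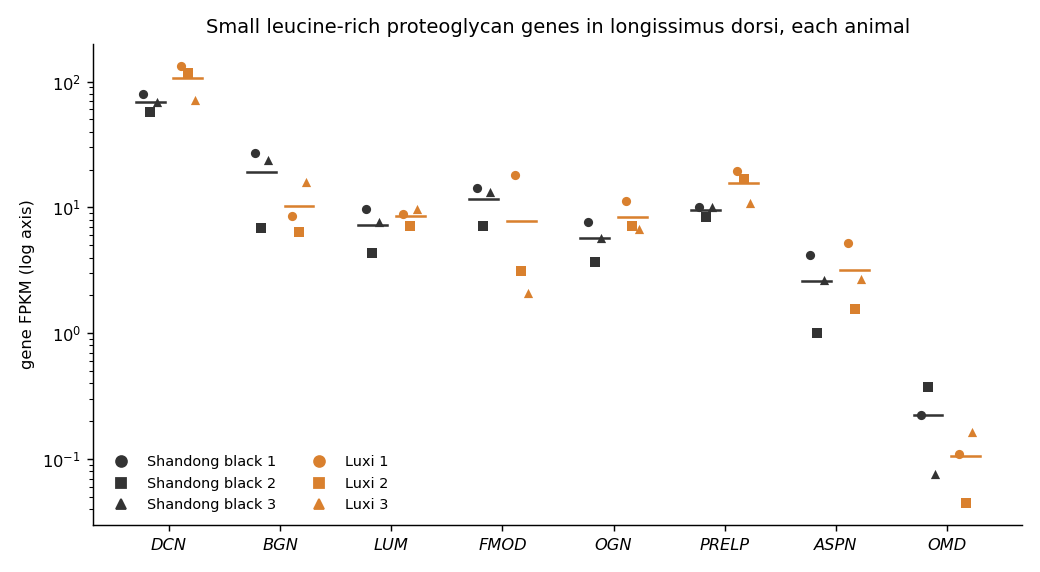
Gene FPKM (log axis) of the 8 small leucine-rich proteoglycan genes, with 1 symbol per animal and the mean of each breed as a bar. DCN is the highest gene in each animal, OMD stays under 0.4 FPKM, and only the PRELP symbols of the breeds do not overlap among the 7 genes tested.

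Of the 8 genes, 7 reached a mean of 1 FPKM in at least 1 breed and were tested, and OMD did not. None of the 7 was called between the breeds by limma (adjusted p below 0.05 together with a change of 1 or more on the log2 scale, up or down), where 2.55% of all genes tested were called. Voom called 0 of the 7 as well. At an unadjusted p under 0.05, 1 of the 7 passed, namely PRELP, against 21.9% of all genes tested. In sign, 5 were higher in Luxi cattle (DCN, LUM, OGN, PRELP and ASPN) and 2 were lower (BGN and FMOD), with a median log2 fold change of 0.26 over the 7 genes, or 0.12 with size factors. The 7 signs were the same with TPM, size factors and quantile normalization. The breeds did not overlap for 1 of the 7, PRELP, against 29.1% of all genes tested. With 3 animals per breed the 95% intervals of the log2 fold change were wide, from -0.14 to 1.35 for DCN, from -1.98 to 0.51 for BGN and from -2.50 to 0.57 for FMOD.

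The class I members, which carry chondroitin or dermatan sulphate chains in the case of DCN and BGN, did not share a direction. DCN, which binds the fibrils of type I collagen and TGF-beta, is located on chromosome 5 from 21014373 to 21053400 (ARS-UCD1.2, minus strand). Its level was 79.8, 56.8 and 68.3 FPKM in Shandong black animals 1 to 3 and 133, 117 and 71.0 FPKM in Luxi animals 1 to 3. Luxi animals 1 and 2 lay above all Shandong black animals, while Luxi animal 3 lay among them. The breed means (± SD, n = 3) were 68.3 ± 11.5 for Shandong black and 107 ± 32.3 for Luxi, and the log2 fold change of 0.60 ± 0.32 (SE) was not called (limma adjusted p = 0.311).

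BGN, the closest relative of DCN and also a binder of TGF-beta, lies on the X chromosome from 36728447 to 36742281 (plus strand). It had 27.0, 6.83 and 23.9 FPKM in Shandong black animals 1 to 3 and 8.49, 6.35 and 15.8 FPKM in Luxi animals 1 to 3. Shandong black animals 1 and 3 were the highest, whereas Shandong black animal 2 fell among the Luxi animals. The log2 fold change was -0.74 ± 0.53 (SE, limma adjusted p = 0.444), and it was -1.32 without Shandong black animal 2 (limma adjusted p = 0.143). The median log2 fold change of the 299 genes tested on the X chromosome was 0.12, against 0.13 on the autosomes. A median over many genes does not speak to BGN itself, for which sex and breed cannot be told apart.

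ASPN, which binds collagen and TGF-beta but usually carries no sulphated chain, had 4.22, 0.997 and 2.63 FPKM in Shandong black animals 1 to 3 and 5.25, 1.56 and 2.68 FPKM in Luxi animals 1 to 3. Its values spread as widely within a breed as between the breeds. The log2 fold change was 0.21 ± 0.43 (SE, limma adjusted p = 0.802), and its sign turned without Shandong black animal 2 (-0.16) or without Luxi animal 1 (-0.13).

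Of the class II members, which carry keratan sulphate chains or none, PRELP had the clearest separation. PRELP, on chromosome 16 from 1238686 to 1252743 (plus strand), codes for a basic, arginine- and proline-rich member that links basement membranes to the collagen around them. Its level was 10.15, 8.42 and 10.04 FPKM in Shandong black animals 1 to 3 and 19.5, 17.0 and 10.85 FPKM in Luxi animals 1 to 3. All Luxi animals lay above all Shandong black animals, but Luxi animal 3 by less than 1 FPKM. The breed means (± SD, n = 3) were 9.53 ± 0.970 for Shandong black and 15.8 ± 4.46 for Luxi. The log2 fold change of 0.64 ± 0.25 (SE) was not called (limma adjusted p = 0.195, unadjusted p = 0.0360), and with size factors the breeds overlapped.

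The size of the PRELP difference depended on how transcripts were summed. In Shandong black animals 2 and 3, 59.4 and 45.3% of the PRELP FPKM was on assembled transcripts that ran 6372 to 6940 bases past the annotated 3' end of the gene, and no such transcript was listed in the other 4 animals. With reference transcripts alone the PRELP values were 3.42 and 5.49 FPKM in those 2 animals, and the log2 fold change was 1.26 (limma adjusted p = 0.140). Read depth over the annotated PRELP exons, from all its transcripts, was 9.74, 5.91 and 7.75 per aligned gigabase in Shandong black animals 1 to 3 and 19.2, 16.7 and 10.5 in Luxi animals 1 to 3, without overlap. Over the first PRELP exon alone, Luxi animal 3 at 11.2 was level with Shandong black animals 1 and 3, both also at 11.2.

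FMOD, which binds the same fibrils as LUM and takes part in their maturation in tendon, lies 107 kb from PRELP on chromosome 16 (from 1122158 to 1132168, minus strand). It had 14.4, 7.13 and 13.3 FPKM in Shandong black animals 1 to 3 and 17.99, 3.13 and 2.08 FPKM in Luxi animals 1 to 3. Luxi animal 1 had the highest value of the 6 animals, and the other 2 Luxi animals had the lowest. The log2 fold change was -0.96 ± 0.66 (SE, limma adjusted p = 0.422). Without Luxi animal 1, which held the highest value, it was -1.77 and passed the threshold (limma adjusted p = 0.0326). In that fit 6.09% of all genes tested were called. Without Luxi animal 2 it was -0.67, and without Luxi animal 3 it was -0.46 (limma adjusted p = 0.650 and 0.741). FMOD was the only member called in any of the fits, alternatives included.

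LUM, a keratan sulphate proteoglycan known from cornea, skin and muscle, is the neighbour of DCN on chromosome 5 (from 20971294 to 20978509, minus strand), 35.9 kb away. It had 9.75, 4.34 and 7.59 FPKM in Shandong black animals 1 to 3 and 8.92, 7.06 and 9.68 FPKM in Luxi animals 1 to 3. The breeds overlapped almost fully, and the log2 fold change of 0.26 ± 0.28 (SE, limma adjusted p = 0.617) became -0.02 without Shandong black animal 2. The neighbours DCN and LUM thus had log2 fold changes of 0.60 and 0.26, and FMOD and PRELP had -0.96 and 0.64.

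OGN, ASPN and OMD lie side by side on chromosome 8. The gap is 6.29 kb between OGN and OMD, and 13.04 kb between OMD and ASPN. OGN, a class III member found in bone and muscle, spans 84019267 to 84034853 (minus strand). It had 7.68, 3.67 and 5.72 FPKM in Shandong black animals 1 to 3 and 11.3, 7.14 and 6.79 FPKM in Luxi animals 1 to 3. Only Shandong black animal 1 lay above a Luxi animal, and the log2 fold change of 0.50 ± 0.29 (SE) was not called (limma adjusted p = 0.347). ASPN spans 84067280 to 84092633 on the same strand.

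OMD, a keratan sulphate member known from bone, spans 84041140 to 84054241 and was barely detected. It had 0.223, 0.376 and 0.0755 FPKM in Shandong black animals 1 to 3 and 0.111, 0.0448 and 0.164 FPKM in Luxi animals 1 to 3, from an estimated 20 to 98 reads. At this depth no difference between the breeds was detectable. In Shandong black animals 1 and 2 and in Luxi animal 3, 100% of the OMD FPKM was on assembled transcripts outside the reference. Shandong black animal 2 had the highest FPKM, but the fewest estimated reads (20). Its read depth over the annotated OMD exons was also the lowest, at 0.0292 per aligned gigabase. In 4 of the 6 animals more FPKM was assembled on the strand opposite to OMD than on its own, with 0.576 FPKM in Shandong black animal 1, 0.232 in Shandong black animal 3, 0.463 in Luxi animal 1 and 0.366 in Luxi animal 3. CENPP, a centromere protein gene whose span on the opposite strand covers OGN, OMD and ASPN, had 0.0285 to 0.672 FPKM over its own exons. At the other 7 genes the opposite strand held at most 0.271 FPKM.

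**Figure D2:**
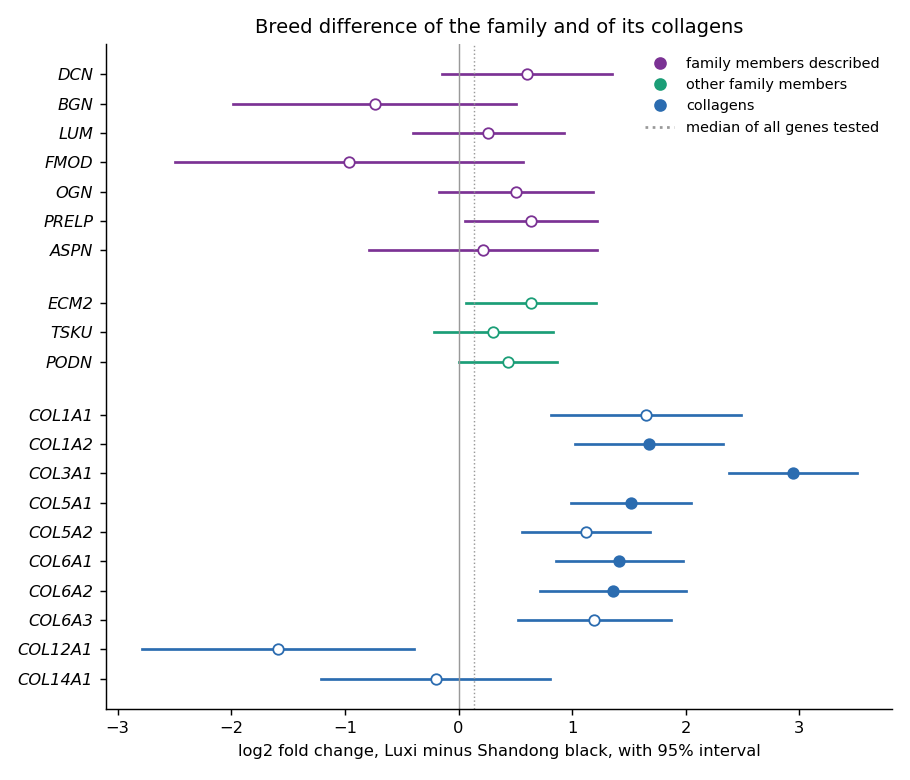
Log2 fold change, Luxi minus Shandong black, with its 95% interval from limma, for the 7 members tested, 3 other family members and 10 collagens. Filled symbols passed the threshold, and the dotted line is the median of all genes tested (0.13). No family gene is filled, and 5 of the 10 collagens are.

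The members shared much of their order among the animals of a breed. Shandong black animal 1 was the highest and Shandong black animal 2 the lowest of its breed in 7 of the 7 genes tested. In Luxi cattle, animal 1 was the highest in 5 of the 7, and the lowest values were divided between animal 2 (3 genes) and animal 3 (4 genes). The genes are measured in the same libraries, so these counts are not independent of each other. COL1A1 had its lowest value, 17.5 FPKM, in Shandong black animal 2 as well. The slow myosin gene MYH7 was highest there, at 2097 FPKM against 120 to 479 in the other animals.

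DCN and PRELP had nearly the same profile over the 6 animals. PRELP stood at 0.127, 0.148 and 0.147 of the DCN level in Shandong black animals 1 to 3 and at 0.146, 0.145 and 0.153 in Luxi animals 1 to 3. The difference of the log2 ratio between breeds was 0.08 (exact two-sided permutation test, p = 0.6). With reference transcripts only, which lowered PRELP in 2 Shandong black animals, that difference was 0.80. OGN also kept close to DCN, at 0.0646 to 0.0963 of its level in Shandong black cattle and 0.0612 to 0.0956 in Luxi cattle, with a difference of -0.02 in the log2 ratio (exact two-sided permutation test, p = 0.9). That difference was -0.32 with reference transcripts only, where the log2 fold change of OGN was 0.25, and in Luxi animal 3 38.7% of the OGN FPKM was on assembled transcripts.

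BGN and FMOD did not follow DCN. The ratio of BGN to DCN was 0.339, 0.120 and 0.350 in Shandong black animals 1 to 3 and 0.0637, 0.0544 and 0.223 in Luxi animals 1 to 3, a difference of -1.40 on the log2 scale. The ratio of FMOD to DCN was 0.180, 0.125 and 0.194 in Shandong black animals and 0.135, 0.0268 and 0.0293 in Luxi animals, a difference of -1.79. In each case 1 Luxi animal (3 for BGN, 1 for FMOD) lay inside the Shandong black range, and p was 0.2 for both (exact two-sided permutation test), or 0.6 after Benjamini-Hochberg adjustment over the 6 ratios. Leaving out 1 animal at a time gave -2.04 (without Luxi animal 3) to -1.02 (without Luxi animal 2) for BGN and -2.55 (without Luxi animal 1) to -1.38 (without Luxi animal 2) for FMOD. LUM and ASPN had differences of -0.30 and -0.28 relative to DCN (exact p = 0.5 and 0.6). A comparison of 3 with 3 animals cannot give an exact p below 0.1, so none of these ratios could have passed 0.05. None of the 6 ratios was without overlap, where 22.3% of all genes tested were.

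Likeness was also measured as the root mean square difference of mean-centred log2(FPKM + 1) over the 6 animals. By this measure the nearest members were DCN and PRELP (0.085), and OGN was nearest to DCN (0.23), LUM to OGN (0.26) and ASPN to OGN (0.30). BGN was 0.64 from its nearest member, LUM, and FMOD was 0.81 from its nearest, ASPN. For each of the tested members except DCN, genes outside the family were nearer than any member, such as ATP5F1A for PRELP (0.049), MEDAG for LUM (0.068), SPRY4 for OGN (0.10), ASB5 for BGN (0.090) and DNAJC3 for FMOD (0.31), looked up after the values were seen. The nearest outside gene was picked from all 9765 genes tested and the nearest member from the 7 members alone. With so many more candidates outside, this comparison cannot decide whether a likeness is particular to the family. The 5 genes outside the members with the smallest difference from the mean profile of the 7 members were SPTY2D1 (0.071), ZZZ3 (0.072), RBMS1 (0.088), VASH1 (0.089) and ALDH7A1 (0.090).

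**Figure D3:**
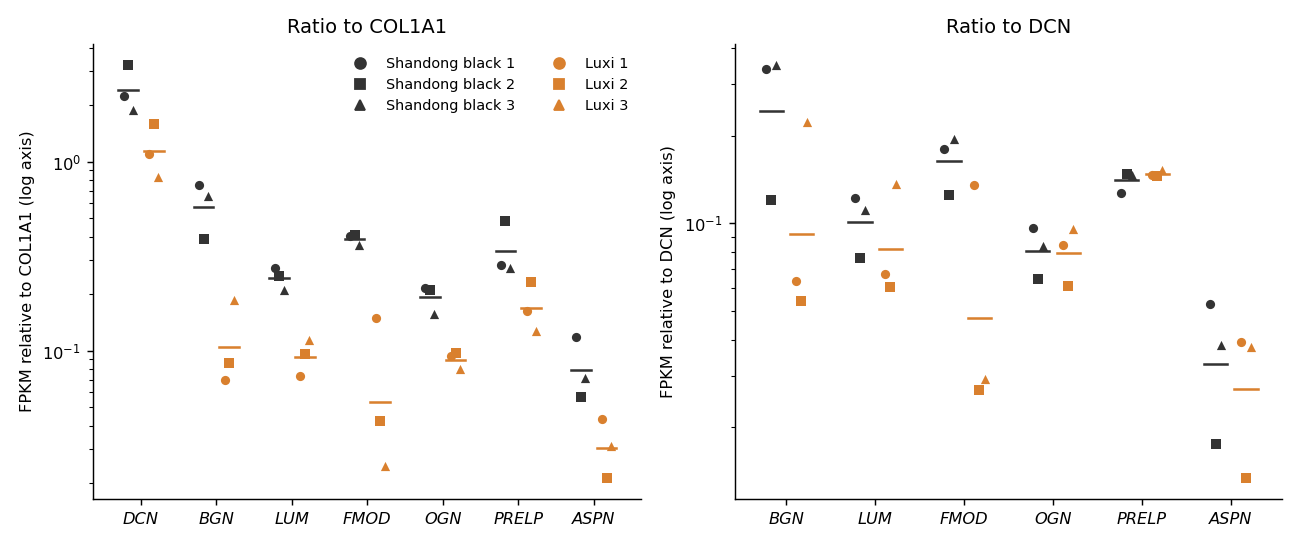
FPKM of the tested members relative to COL1A1 (left) and to DCN (right) on log axes, with 1 symbol per animal and the geometric mean of each breed as a bar. All 7 members lie lower relative to COL1A1 in Luxi cattle without overlap, as 74.0% of all genes tested do, and relative to DCN the PRELP symbols span only 0.127 to 0.153.

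Of the collagens that the family binds, all 10 of the list were tested. Of these, 5 were called higher in Luxi cattle (against 1.56% of all genes tested) and none was called lower (against 0.993%), with a median log2 fold change of 1.39, or 1.23 with size factors. COL3A1, the fibril collagen of loose connective tissue, had 22.4, 20.4 and 23.2 FPKM in Shandong black animals 1 to 3 and 194, 145 and 192 FPKM in Luxi animals 1 to 3, and its log2 fold change was 2.94 ± 0.24 (SE, limma adjusted p = 0.00717). COL1A2, COL5A1, COL6A1 and COL6A2 were the other collagens called, with log2 fold changes of 1.67, 1.52, 1.42 and 1.36. COL1A1 had 1.65 and was not called (limma adjusted p = 0.0586). For 8 of the 10 the Luxi animals lay above all Shandong black animals, as for 20.0% of all genes tested. COL12A1, a collagen on the surface of fibrils in tendon and fascia, had a log2 fold change of -1.59 that was not called (limma adjusted p = 0.134), with 14.0, 5.25 and 12.5 FPKM in Shandong black animals and 6.46, 1.66 and 1.33 FPKM in Luxi animals. Without Luxi animal 1 it was called, at -2.12 (limma adjusted p = 0.0342). COL12A1 and FMOD were both low in Luxi animals 2 and 3 and in Shandong black animal 2, but they differed in Luxi animal 1. There COL12A1 had 6.46 FPKM, below Shandong black animals 1 and 3, while FMOD had its highest value, 17.99 FPKM.

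DCN stood at 2.23, 3.25 and 1.87 of the COL1A1 level in Shandong black animals 1 to 3 and at 1.10, 1.58 and 0.833 in Luxi animals 1 to 3. All 7 members were lower relative to COL1A1 in Luxi cattle, by -0.999 on the log2 scale for PRELP to -2.87 for FMOD, without overlap (exact two-sided permutation test, p = 0.1 each, the smallest possible, and 0.1 after adjustment over the 7 ratios). The same held for 74.0% of all genes tested, so nothing particular to the family is read from it, COL1A1 itself having breed means (± SD, n = 3) of 29.9 ± 10.8 FPKM for Shandong black and 93.4 ± 24.5 FPKM for Luxi. Relative to COL3A1 all 7 members were also lower without overlap, as were 94.6% of all genes tested. With reference transcripts only, PRELP was not lower relative to COL1A1 (0.09 on the log2 scale).

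Of the other 9 family members listed, 5 were found in the files and 3 were tested, and none was called by limma. At an unadjusted p under 0.05 there were 2, where 21.9% of all genes tested passed. ECM2, a class I relative next to ASPN on chromosome 8, had 6.43, 4.49 and 5.79 FPKM in Shandong black animals and 11.97, 6.67 and 9.45 FPKM in Luxi animals, without overlap (log2 fold change 0.64 ± 0.24 SE, limma adjusted p = 0.187). PODN, a podocan of the matrix of smooth muscle, also did not overlap, at 0.44 on the log2 scale (limma adjusted p = 0.224), and TSKU had 0.31. The Luxi animals thus lay above all Shandong black animals for 2 of these 3 genes, against 20.0% of all genes tested. With 3 genes, that count is not read as a result about the family. KERA and CHAD had means under 1 FPKM in both breeds. EPYC, OPTC, NYX and PODNL1 were not analysed here.

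No gene for the synthesis of the sulphated chains passed the test, out of 12 tested for chondroitin and dermatan sulphate and 6 tested for keratan sulphate, with median log2 fold changes of 0.16 and 0.18 and with 2 and 1 genes at an unadjusted p under 0.05 in limma, against 21.9% of all genes tested. B3GAT3, which completes the linker between core protein and chain, had the largest log2 fold change (1.03, limma adjusted p = 0.0787, 8.73 ± 0.604 and 19.4 ± 5.79 FPKM, SD, n = 3 each). It was called without Luxi animal 1 (1.25, limma adjusted p = 0.0193), where 6.09% of all genes tested were called. CHST15 followed with 0.66, which rested on Luxi animal 1 at 4.19 FPKM against 0.702 and 1.13 FPKM in the other Luxi animals and 0.532 to 0.859 FPKM in Shandong black cattle. CHPF, a chondroitin polymerizing factor, had -0.61 and CHST14, the dermatan 4-O-sulphotransferase, had -0.16. For keratan sulphate the values were 0.78 for CHST1 and 0.44 for FUT8 at the upper end, and -0.26 for B3GNT2 and 0.01 for B4GALT4 at the lower end. Luxi animal 1 was also far the highest for CHST1, and the ratio of the breed means, Luxi over Shandong black, was 4.58 with that animal and 2.25 without it. CHST1 and CHST15 had Shandong black means of 0.325 and 0.687 FPKM, so they passed the filter through Luxi cattle alone.

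Among the ligands and receptors that the family binds, 15 were tested and none was called by limma, with 5 at an unadjusted p under 0.05 (against 21.9% of all genes tested) and a median log2 fold change of 0.08. MSTN (myostatin, an inhibitor of muscle growth that DCN can bind) had 0.97 and TGFB2 had 0.95, and BMP4 had -0.59 and IGF1R had -0.53, with limma adjusted p values from 0.139 to 0.466. MSTN was called without Luxi animal 1, at 1.38 (limma adjusted p = 0.0249), in a fit that called 6.09% of all genes tested. It had 0.219, 0.629 and 0.397 FPKM in Shandong black animals and 0.573, 2.08 and 3.31 FPKM in Luxi animals. The breeds overlapped, and MSTN passed the filter through Luxi cattle alone. The list of proteases that cut the family also held PCOLCE, an enhancer of such a protease and not a protease itself. Of the 8 genes tested on this list, 1 was called higher, against 1.56% of all genes tested. HTRA1, a serine protease that degrades DCN, FMOD and BGN, rose from 11.9 ± 2.07 to 39.0 ± 5.94 FPKM (SD, n = 3 each), by 1.63 on the log2 scale (limma adjusted p = 0.0206). ADAMTS1 had 1.17 (limma adjusted p = 0.0766, and 0.0489 without Luxi animal 1, where it was called), ADAMTS5 had -0.63 and MMP2 had -0.29. Over all these lists voom called only COL3A1 and HTRA1. The count of 6 genes called by limma over the lists changed with single animals. It was 1 without Shandong black animal 1, 3 without animal 2 and 0 without animal 3, and it was 10 without Luxi animal 1 and 1 without Luxi animal 2 or 3.

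Of 9 lists of cell type markers, 3 held genes called between the breeds, namely those of fibroblasts, tendon cells and fat cells. In bulk tissue fewer cells of a type and less RNA per cell cannot be told apart. Of 6 fibroblast and fibro-adipogenic progenitor markers tested, 1 was called higher in Luxi cattle (COL15A1), against 1.56% of all genes tested. The summed level of the list was 101 to 109 FPKM in Shandong black cattle and 118 to 146 FPKM in Luxi cattle. COL15A1 carried that separation, since the sum without it was 93.1 to 101 and 90.0 to 107 FPKM. The tested markers had 3 positive and 3 negative log2 fold changes, with a median of 0.16. Of 4 tendon cell markers tested, 2 were called lower (COMP and FBLN7), against 0.993% of all genes tested. The sum was 42.9 to 141 and 14.1 to 64.2 FPKM. THBS4 was its largest part, with 88.1, 31.2 and 70.6 FPKM in Shandong black animals and 48.1, 12.3 and 63.3 FPKM in Luxi animals. It overlapped and was not called (limma adjusted p = 0.517). COMP, the cartilage oligomeric matrix protein of tendon, had 44.3, 9.06 and 32.4 FPKM in Shandong black animals and 2.83, 1.11 and 0.259 FPKM in Luxi animals. FBLN7 was listed at 0 in Luxi animals 2 and 3. TNMD had 2.18, 0.422 and 2.58 FPKM in Shandong black animals and 2.91, 0 and 0.337 FPKM in Luxi animals. It overlapped, with Luxi animal 1 the highest, and was not called (limma adjusted p = 0.599). SCX was under 0.4 FPKM in each animal. The part of these markers in the values of FMOD and BGN was not tested.

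Of 6 fat cell markers tested, 4 were called lower in Luxi cattle, against 0.993% of all genes tested. The sum of the list was 126 to 191 FPKM in Shandong black cattle and 35.4 to 53.5 FPKM in Luxi cattle. LPL, the lipoprotein lipase, was higher in Luxi cattle without overlap, with 17.5, 17.0 and 16.7 FPKM in Shandong black animals and 37.2, 23.3 and 36.2 FPKM in Luxi animals, and its log2 fold change of 0.85 was not called (limma adjusted p = 0.106). The endothelial sum was 17.9 to 20.2 and 24.0 to 68.9 FPKM, and the mural sum was 57.8 to 69.3 and 37.9 to 246 FPKM, with the highest values in Luxi animal 1 and no gene called. The macrophage sum was 29.7 to 40.8 and 14.9 to 30.8 FPKM, the satellite cell sum 2.75 to 3.40 and 2.78 to 6.75 FPKM, and the cartilage and bone sum 1.04 to 3.48 and 0.557 to 1.82 FPKM, again without a call. The skeletal muscle fibre sum, which marks the labelled tissue, was 45503 to 56026 FPKM in Shandong black cattle and 23071 to 71950 FPKM in Luxi cattle. The part of these cell types in the levels of the members was not tested.

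Read depth was also compared exon by exon. In DCN, depth was greatest over the sixth and seventh of its 10 annotated exon blocks, at 175 to 223 per aligned gigabase in Shandong black cattle and 181 to 338 in Luxi cattle, and it was 14.9 to 51.2 over the last block. The log2 ratio of the breed means was 0.13 over the fifth block and 0.95 over the ninth. In BGN the ratio was negative in each of the 9 blocks, from -0.61 over the last to -2.40 over the second. These blocks were read in the same libraries and do not count as separate results. Shandong black animal 2 lay above all Luxi animals only over the second block, and over the last, at 4.89, it was the lowest animal. In FMOD the ratio was -0.44, -0.71 and -0.54 over the 3 blocks, with Luxi animal 1 the highest in each.

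**Figure D4:**
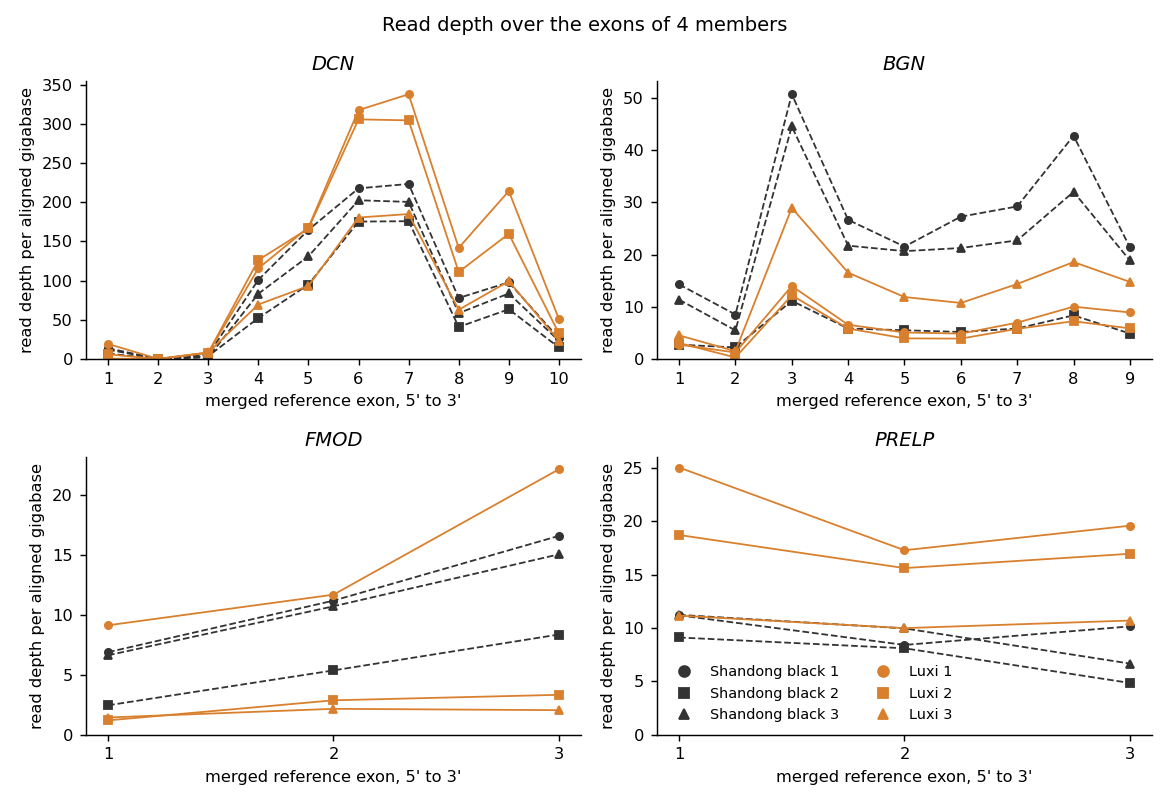
Read depth per aligned gigabase over the merged reference exons of DCN, BGN, FMOD and PRELP, from the 5' to the 3' end, with 1 line per animal. The DCN lines peak over exons 6 and 7, Luxi animal 1 lies on top in FMOD, and Shandong black animals 2 and 3 fall towards the last PRELP exon, to 4.85 and 6.67.

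The annotated DCN transcripts differ in their first exon, and the shares of these transcripts divided the breeds where the DCN total did not. How many transcripts or exons of other genes divide the breeds in this way was not computed. At the gene level 29.1% of all genes tested did not overlap, so nothing particular to DCN is read from this. The transcript with the upstream first exon (chromosome 5, 21053210 to 21053400) took 75.7, 31.6 and 84.2% of the DCN FPKM in Shandong black animals 1 to 3 and 14.8, 2.70 and 1.78% in Luxi animals 1 to 3. The transcript with the downstream first exon (21050148 to 21050364) took 23.2, 67.9 and 14.8% in Shandong black animals and 83.7, 95.1 and 94.8% in Luxi animals, without overlap. The transcript with a first exon between them (21053130 to 21053193) took at most 3.37%. These transcripts share most of their exons, so the division of reads between them was estimated by the assembler.

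Depth over the first exons themselves, which only 1 transcript each contains, showed part of this. The downstream first exon had a depth of 5.57, 3.79 and 2.16 per aligned gigabase in Shandong black animals 1 to 3 and 7.98, 8.09 and 8.49 in Luxi animals 1 to 3, without overlap. The upstream first exon had 13.9, 7.08 and 12.1 in Shandong black animals and 19.4, 5.998 and 0.575 in Luxi animals, so only Luxi animals 2 and 3 lay below the Shandong black animals. The ratio of the downstream to the upstream exon was 0.400, 0.536 and 0.179 in Shandong black animals and 0.412, 1.35 and 14.8 in Luxi animals. Luxi animal 1 therefore lay inside the Shandong black range in the exon ratio, and outside it in the estimated transcript share. All 3 first exons were shallow beside the fourth block, which had 52.4 to 101 in Shandong black animals and 69.6 to 126 in Luxi animals. The first exons thus held only a small part of the DCN depth.

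**Figure D5:**
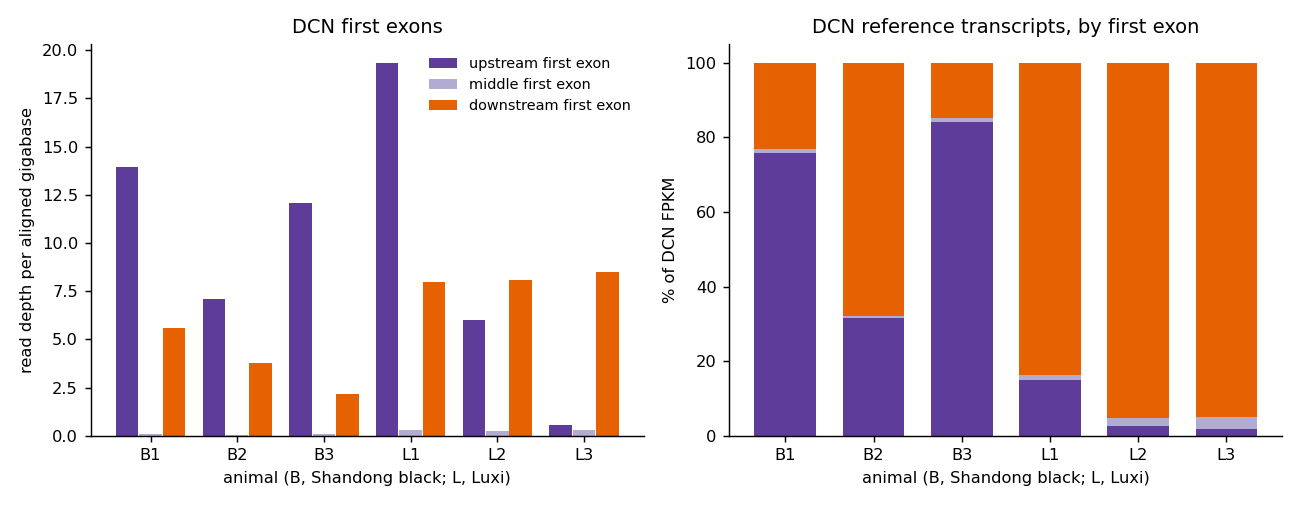
Left, read depth per aligned gigabase over the 3 alternative DCN first exons in each animal. Right, the share of the DCN FPKM on the transcript that starts at each of them, in the same colours. The downstream first exon is deepest in the Luxi animals, and the upstream one is nearly empty in Luxi animal 3 (0.575).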

How the data were processed

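RNA-Seq of longissimus dorsi muscle was available for 3 animals per breed, grouped by the breed in the labels. The authors used Fastp to trim reads, HISAT to align them (ARS-UCD1.2) and assembled each library with StringTie (1.3.3b per the file headers, while the Methods name another version), guided by the NCBI annotation and using strand. The deposited values are coverage, FPKM and TPM per transcript. FPKM is coverage per aligned base of a library, and the deposited coverage is not normalized. Gene FPKM was the sum of reference transcripts and of unnamed transcripts lying on its exons, same strand, for 50% or more of their length. Transcripts outside these rules held 21.6 to 29.9% of the FPKM per library. Estimated reads used coverage, length and a read length of 150 bases. The TruSeq kit named in the labels and the stranded setting in the headers were not reconciled here, so values per strand rest on that setting.

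The authors' test needs alignments and was not run. limma 3.58.1 (R 4.3.3, lmFit and eBayes with trend, log2(FPKM + 1), Benjamini-Hochberg) was run over 9765 genes with a mean of at least 1 FPKM in 1 breed or more, and a fold change is on that scale, which understates the change of low genes. Ratios used exact two-sided permutation tests (scipy 1.17.1). The script was checked on simulated data. The members, gene lists and tests were chosen with earlier results of these data known. Outside the cell type lists, named list genes are those called and the 2 largest rises and falls per list, together with the other family members and COL1A1. Gene names were matched to RefSeq (ARS-UCD2.0) for 91.3% of genes, 8 of 8 members included, for names and chromosomes only, and coordinates are those of the files. Replicates are separate animals, and their number limits the precision. Pseudocount, filter, scaling, strand, transcript and replicate alternatives were run. Depth over the reference exons and COL3A1 as a denominator were added after seeing the data.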

Additional observations from a re-analysis of the deposited data

Results flagged for a closer look

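FPKM on the strand opposite to OMD reached 0.576 in Shandong black animal 1, where OMD itself had 0.223 FPKM. It is a signal outside the values compared, and it was not seen in Shandong black animal 2 or Luxi animal 2. The span of CENPP covers OMD on that strand, and its part in this signal was not tested. Groups of 3 animals were not tested for outlying samples.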

How the results depend on the processing

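Under the other pseudocount, filters, scalings, strand and transcript rules, the log2 fold changes of the 7 members kept their sign and none was called, except that ASPN was too low to be tested with a mean of at least 5 FPKM. Leaving out 1 animal at a time gave 0.42 to 0.87 for DCN, -1.32 to -0.40 for BGN, -0.0191 to 0.49 for LUM, -1.77 to -0.46 for FMOD, 0.27 to 0.72 for OGN, 0.47 to 0.87 for PRELP and -0.16 to 0.53 for ASPN. The number of members called was then 0 to 1, of members higher in Luxi cattle 3 to 5, of members without overlap 1 to 3, and of list genes called 0 to 10. With an animal left out the breeds separate more easily. The share of all genes without overlap was not computed there, so that count is not read as a result about the family. The members without overlap were 0 with TPM or size factors, and the list genes called were 2 without a filter or with voom. The log2 ratio to DCN ranged from -0.18 to 0.16 for OGN and from -0.73 to 0.23 for ASPN without 1 animal, and the ratio of PRELP to COL1A1 was 0.0878 with reference transcripts only. The cause of these changes was not tested. Genes called over the whole table numbered 249 (152 higher, 97 lower), 263 with size factors (116 higher, 147 lower), 289 with quantile normalization (125 higher, 164 lower), 65 without a filter, 139 with a mean of at least 5 FPKM, 92 with voom, 162 with reference transcripts only, and 3 to 591 without 1 animal.

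Same-numbered animals are different animals, and their deviations from the breed means correlated by 0.0905, 0.0899 and 0.0816. Those of differently numbered animals correlated by -0.111 to 0.00785, so each animal correlated best with its own number. The values are small, and with 3 numbers they cannot decide whether the numbers pair the animals. With the replicate block 134 genes were called, no member among them (0), and 4 of the list genes. The block left the log2 fold changes as they were, and the adjusted p of FMOD was 0.291. Depth was higher in Luxi cattle, and it left OMD with 20 to 98 estimated reads per animal.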
